A study of Mus musculus with 4 samples.

Results

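The 10 genes described here are expressed by monocytes and their precursors: Fn1, F13a1, Vcan, Lyz1, Lyz2, Ms4a6c, Cd14, Cd68, Mpeg1 and Adgre1. They were picked by name out of 31660 gene names on the array (Adgre1 carries its older name Emr1 there), and all 10 had a probe, 15 probes in all. They were drawn up with differences between the groups already known, so the differences below describe these genes and were not tested for them. The RNA came from preproB cells, which are B-cell precursors, taken from C57BL/6 bone marrow by sorting lineage-negative, B220+, CD43+, BP1- and CD24- cells, and each sample was read on its own 1-colour Agilent array. The EnhDel mice were Enh(f/f);Mx1-Cre, with loxP sites around the enhancer 37 kb from Cebpa and a Cre recombinase under the interferon-inducible Mx1 promoter; the control mice were Enh(f/f) without Cre. Mice of both groups received pIpC, an RNA mimic of viral infection that sets off an interferon response, in 3 doses, and the marrow was harvested 5 weeks afterwards. Each group had 2 arrays. Both EnhDel samples are labelled male and 24 weeks old, control replicate 1 female and 26 weeks, and control replicate 2 male and 24 weeks. Since only the EnhDel group carried Cre, loss of the enhancer and presence of Cre cannot be told apart, and although the title can be read as naming 2 mice, the labels do not tie a sample to a single animal.

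Monocytes arise in the bone marrow from granulocyte and monocyte progenitors, and C/EBPα, the product of Cebpa, is a transcription factor needed to form those progenitors. Fibronectin (Fn1), coagulation factor XIII subunit A (F13a1) and the proteoglycan versican (Vcan) are matrix or matrix-linking proteins made by young monocytes. Lysozymes cleave bacterial cell walls: mice have a pair of neighbouring lysozyme genes, of which Lyz2 is the main one of myeloid cells and Lyz1 that of Paneth cells in the gut. Cd14 is a receptor for bacterial lipopolysaccharide, Adgre1 encodes an adhesion receptor used as a surface marker of mouse macrophages, Ms4a6c is a membrane protein with several membrane-spanning segments, Cd68 is a glycoprotein of late endosomes and lysosomes, and Mpeg1 encodes perforin-2, a pore-forming protein that acts on engulfed bacteria.

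The probes of the 5 genes that were lower on both EnhDel arrays than on both control arrays are shown first, because those readings rest on them. Each is a 60-base probe printed for its first 30 bases, 5′ to 3′, and positions are those of the array files in mouse build mm9. The Fn1 probe lies at chr1:71632116-71632175, the brighter F13a1 probe at chr13:36959214-36959273, the Lyz1 probe at chr10:116724862-116724921, the Lyz2 probe at chr10:116719175-116719234 (these 4 on the minus strand) and the Ms4a6c probe at chr19:11545580-11545639 on the plus strand. Whether each probe lies in a coding or an untranslated part was not worked out here.
Fn1 probe: ggtgattatttttataagcacatgccaacg
F13a1 probe: ctggtttacttctaagtcattgataggttc
Lyz1 probe: ccaataaccacaggagcaaatctaatctca
Lyz2 probe: aacgttgtgagtttgccagaactctgaaaa
Ms4a6c probe: tgtggcagctccatcatgattccacaggta

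The 250 bases before the annotated start of the neighbouring lysozyme genes are also shown, because these genes are near copies and were both low on the EnhDel arrays. They come from RefSeq on build GRCm38.p6, both read on the minus strand, at chr10:117292869-117293118 for Lyz1 and chr10:117282273-117282522 for Lyz2. In an alignment of these stretches 200 positions were identical (79.4% of the aligned length, with 4 gapped positions), and the last 50 bases before the start site were the same in both genes. Capitals mark a match to the C/EBP motif TTGCNNAA, searched on both strands, which was found in Lyz1 and not in this window of Lyz2.
Lyz1 upstream region: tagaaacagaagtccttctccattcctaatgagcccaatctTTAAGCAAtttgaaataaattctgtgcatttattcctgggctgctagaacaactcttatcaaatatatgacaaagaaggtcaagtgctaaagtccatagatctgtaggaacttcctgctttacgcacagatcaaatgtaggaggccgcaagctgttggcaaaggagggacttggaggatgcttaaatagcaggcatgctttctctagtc
Lyz2 upstream region: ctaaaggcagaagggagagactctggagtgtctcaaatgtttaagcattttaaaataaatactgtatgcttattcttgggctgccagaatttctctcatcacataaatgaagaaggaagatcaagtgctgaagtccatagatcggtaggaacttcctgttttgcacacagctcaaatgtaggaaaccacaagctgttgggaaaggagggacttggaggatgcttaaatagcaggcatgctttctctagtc

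The scanner software flagged 59.6% to 64.9% of the 39429 probes of an array as well above background and none as saturated. The lowest signal that carried this flag was 12.1 to 14.4, and readings below it have no order. The flag was not a fixed cut at that signal, since some readings just over it carried none. Bounds on fold built on it are thus approximate. Cebpa itself had processed signals of 125 and 287 on EnhDel replicates 1 and 2, against 1271 and 927 on control replicates 1 and 2. The sort's own genes Ptprc (B220) and Spn (CD43) were well above background on all 4 arrays and Enpep (BP1) on none, while Cd24a (CD24) read 4386 and 1910 on the EnhDel arrays, against 4779 and 6366 on the control arrays. All 8 genes of a plasmacytoid dendritic cell list, such as Siglech and Tcf4, were well above background on all 4 arrays. The samples' sex labels were in part contradicted: Xist read 1551 on EnhDel replicate 2, labelled male, and was at or below 5.32 on the other 3 arrays, and the Y-linked gene Ddx3y read 3116 on control replicate 1, labelled female. EnhDel replicate 2 carried Y-linked signal too, with Ddx3y at 1560, against 3116 to 3624 on the other 3 arrays, and whether RNA of male and female animals was mixed there was not tested. The EnhDel arrays also lay further apart than the control arrays, with an SD of log2 differences between replicates of 0.611, against 0.333. Every gene below is therefore given array by array.

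Fn1 was measurable on the control arrays alone. Its processed signal, the background-corrected brightness of the spot, was 2.59 and 2.60 on EnhDel replicates 1 and 2, against 627 and 293 on control replicates 1 and 2. It was well above background on both control arrays and on neither EnhDel array. The level on the EnhDel arrays is thus only a bound: Fn1 was at least 33.4-fold lower there, a bound in which the EnhDel arrays are set no lower than the weakest signal that still carried the flag. Over the 19391 genes tested, 0.382% were measured on both control arrays and on neither EnhDel array. Fn1 was chosen with this contrast known and passed the filter through the control arrays alone, so nothing is read from that share. The control arrays themselves differed by 1.27 on the log2 scale for Fn1. The bound holds for this processing. The log2 difference was -1.71 with limma's normexp correction and -2.996 with that correction after spots of extreme local background were repaired. Both normexp runs also added an offset of 50 to the signals, which by itself shrinks log2 differences that involve low readings. In the authors' deposited table the difference was -3.6.

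F13a1 read 36.1 and 4.94 on EnhDel replicates 1 and 2, against 1046 and 1077 on the control replicates. The control values nearly coincided, while only EnhDel replicate 1 was well above background, so the EnhDel arrays agree on a low reading and not on its size. The normalized log2 difference, EnhDel minus control, was -6.21 ± 1.02 (SE, n = 2 per group), and it was -4.73 without EnhDel replicate 2, whose reading is below the measurable range. A second F13a1 probe, nearer the start of the transcript, was well above background on no array. Vcan gave another picture. Its brightest probe read 87.0 and 174.9 on the EnhDel arrays, against 98.7 and 84.0 on the control arrays, with overlap between groups and a difference of 0.54 ± 0.37 (SE). The other 2 Vcan probes, which the files assign to other stretches of its transcripts, were well above background on no array. The 3 genes linked to the matrix thus split, with Fn1 and F13a1 low on both EnhDel arrays and Vcan overlapping between the groups.

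Both lysozyme genes were lower on the EnhDel arrays. Lyz1 read 40.5 and 60.04 on EnhDel replicates 1 and 2, against 1637 and 768 on the control replicates, and was well above background on all 4 arrays. That is a normalized log2 difference of -4.41 ± 0.48 (SE, n = 2 per group), or 21.2-fold lower. Lyz2 read 7.02 and 12.8 on the EnhDel arrays, against 141 and 76.5 on the control arrays. It was well above background on both control arrays and on neither EnhDel array, so that it was at least 7.70-fold lower by the bound used for Fn1. The 12.8 on EnhDel replicate 2 carried no flag though the lowest flagged signal there was 12.1, so that bound is approximate. In both genes control replicate 1 was the higher control array. The signals of different probes cannot be ranked against each other, so these readings do not say which lysozyme gene was the more abundant. Given how alike the genes are, binding of 1 gene's RNA to the other's probe was not tested. With the normexp correction the Lyz2 difference was 0.23 in place of -3.35, and -0.99 after spots of extreme local background had been repaired. It was -1.45 in the authors' deposited table. The size of the Lyz2 difference thus depends on the processing, including the offset of 50 in the normexp runs. Background subtraction and offset were not told apart. The sign changed in 1 of 13 alternatives, normexp without that repair.

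The surface proteins differed among themselves. Ms4a6c read 271 and 316 on EnhDel replicates 1 and 2, against 1304 and 1892 on the control replicates. It was measured on all 4 arrays, its EnhDel values lay close together and well below both control values, and the difference was -2.33 ± 0.20 (SE), or 5.02-fold lower. It had the smallest SE of the 5 genes that were low on both EnhDel arrays. Cd14 read 55.0 and 134 on the EnhDel arrays, against 120.3 and 81.7 on the control arrays. Its groups overlapped, the lowest and the highest of the 4 values were both from EnhDel arrays, and the difference was -0.11 ± 0.49 (SE).

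Adgre1 was read by a pair of probes that did not give the same answer. The one with the higher mean read 10.5 and 22.0 on EnhDel replicates 1 and 2, against 24.9 and 23.6 on the control replicates, with overlap after normalization, a difference of -0.57 ± 0.37 (SE) and EnhDel replicate 1 not well above background. The other probe, further along the transcript, read 7.59 and 4.20 on the EnhDel arrays, against 43.5 and 37.3 on the control arrays. By that probe Adgre1 was well above background on both control arrays and neither EnhDel array, and at least 3.15-fold lower. On the control arrays these signals of 23.6 to 43.5 lay not far over the lowest flagged signals there, 14.4 and 13.7.

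The genes of phagosomes and lysosomes were well above background on every array. Cd68 read 1686 and 3367 on EnhDel replicates 1 and 2, against 1664 and 1942 on the control replicates, with a difference of 0.50 ± 0.34 (SE). After normalization both EnhDel values lay above both control values, but EnhDel replicate 1 by little: without EnhDel replicate 2 the difference was 0.06. The brighter Mpeg1 probe read 151065 and 165026 on the EnhDel arrays, against 148265 and 171046 on the control arrays. That is a difference of 0.09 ± 0.14 (SE), with a 95% interval of -0.30 to 0.47. The second Mpeg1 probe read 4887 and 4494 on the EnhDel arrays, against 6119 and 6063 on the control arrays, a difference of -0.28. The Mpeg1 probes therefore differ in sign, and the brighter one turned to -0.090 when arrays were scaled by their medians.

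**Figure D1:**
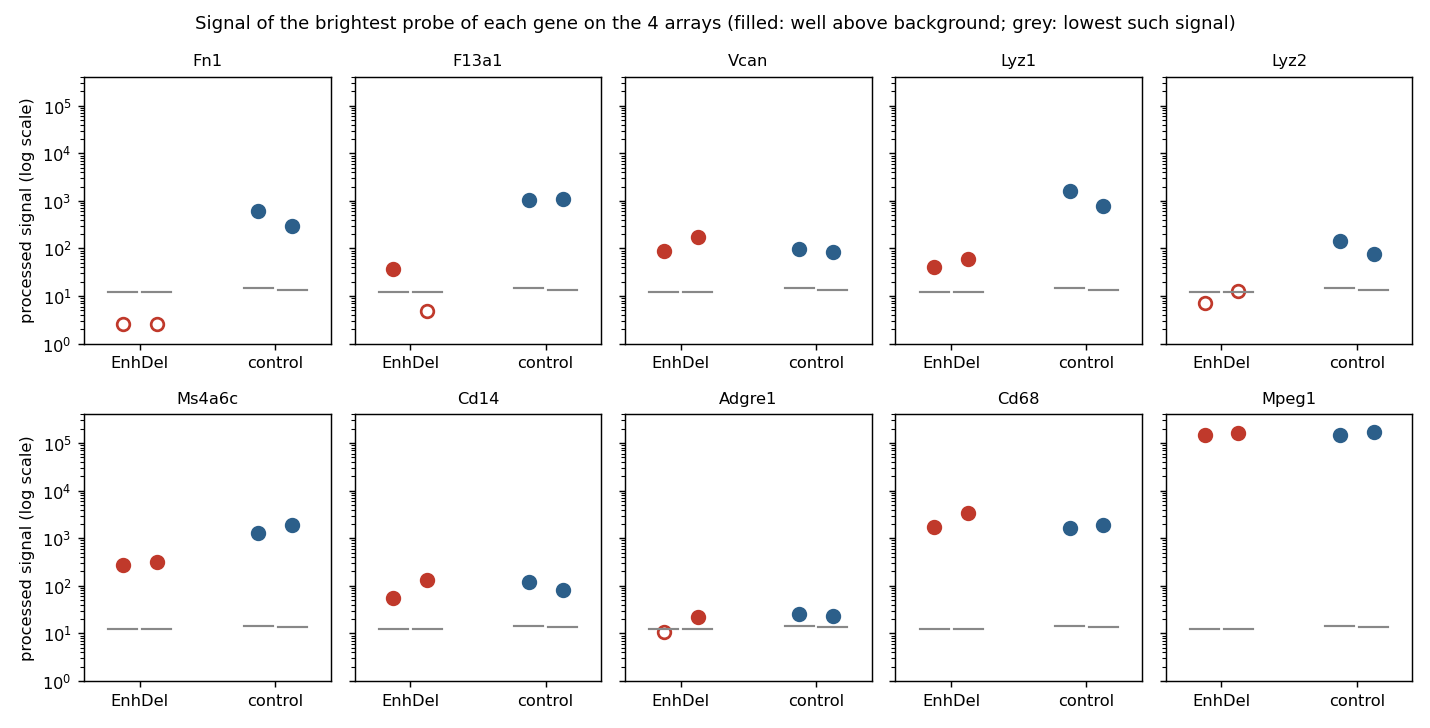
Processed signal (log axis) of the brightest probe of each of the 10 genes, with EnhDel replicates 1 and 2 in red and control replicates 1 and 2 in blue, 1 point per array. Filled points are well above background, open points are not, and grey ticks give the lowest such signal on each array (12.1 to 14.4). Fn1, F13a1, Lyz1, Lyz2 and Ms4a6c lie lower on both EnhDel arrays, while Mpeg1 is near 151065 to 171046 on all 4.

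**Figure D2:**
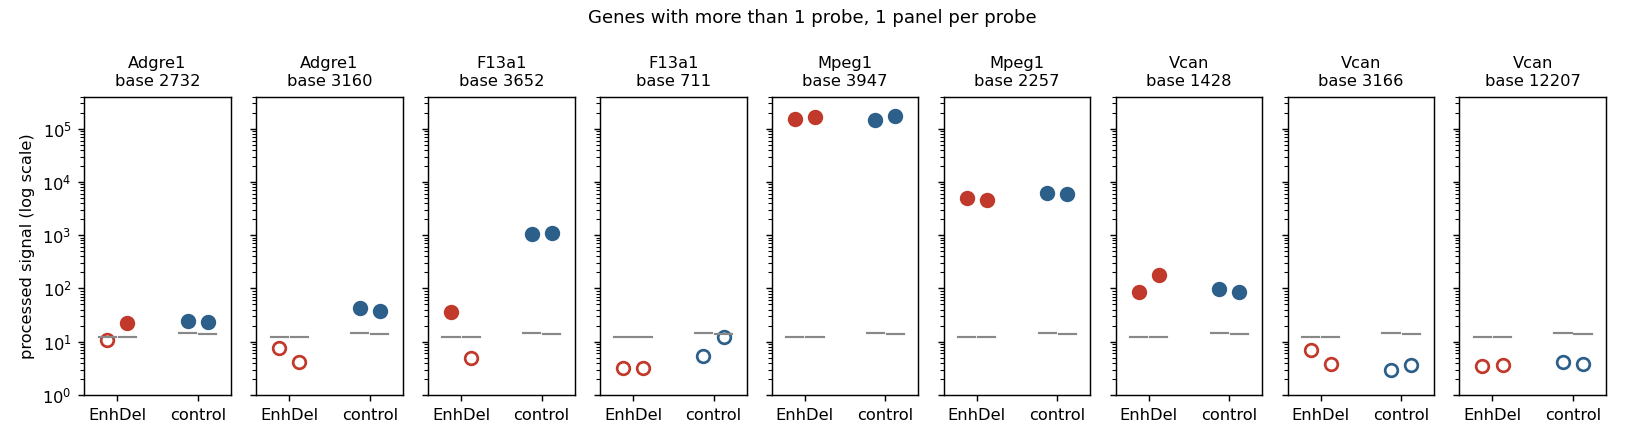
Processed signal (log axis) of every probe of the 4 genes with more than 1 probe, with EnhDel in red and control in blue and points and ticks as in the plot of all 10 genes. The base in each title is the probe's start in the transcript as the array files give it. The F13a1 probe at base 711 and the Vcan probes at bases 3166 and 12207 have open points on all 4 arrays, and the Adgre1 probe at base 3160 is open on the EnhDel arrays alone.

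Counted by gene, 5 of the 10 had EnhDel values that were both under the control values, 2 had both over them, and in 3 the groups overlapped. Over all 19391 genes tested the corresponding shares were 16.6% below and 27.2% above. The same 5 genes were at least 2-fold lower without overlap, as were 2.89% of all genes tested. Since the 10 genes were drawn up with this contrast in view, nothing is read from that difference. Their median log2 difference was -1.45, beside 0.06 over all genes tested. Under normexp the count of lower genes was 3 and the median 0.015, and with repaired spots the median was -0.50. The filter at all 4 arrays left 6 genes, of which 2 were lower, with a median of -0.011. The count was 6 under quantile normalization and under median scaling. It was 7 with the mean over a gene's tested probes and in the authors' deposited table. For these alternatives too, the share over all genes was not worked out. The count of genes lower without overlap was 7 without EnhDel replicate 2 and 5 without control replicate 1, the arrays whose sex-linked genes went against their labels. A single array in a group overlaps less readily, so these counts cannot be set beside that from all 4 arrays. The share over all genes was not worked out for them. No gene of the series passed an adjusted p of 0.05 (0%; 2131 at an unadjusted p under 0.05) in limma's fit over all genes with Benjamini-Hochberg adjustment, so none of the 10 did. All 10 passed the filter on dim probes, but Fn1, F13a1, Lyz2 and Adgre1 did so through the control arrays alone. In sorted bulk samples, fewer cells of a type and less RNA per cell cannot be told apart.

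**Figure D3:**
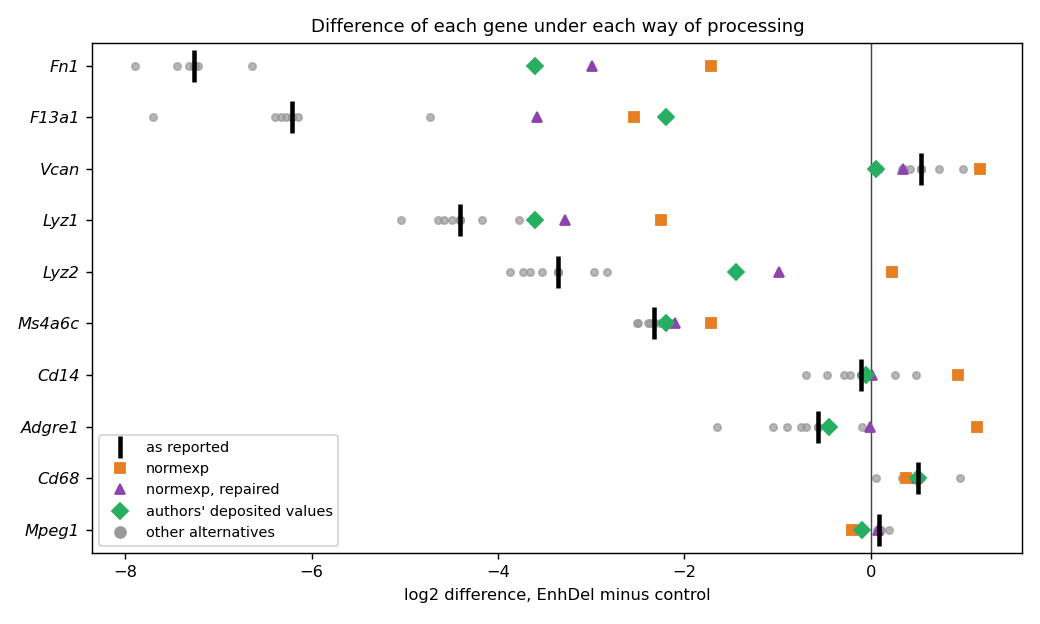
Log2 difference, EnhDel minus control (x axis), of each of the 10 genes (rows) under each way of processing, 1 symbol per alternative, with a black bar for the value as reported. Fn1, F13a1, Lyz1 and Ms4a6c lie below 0 throughout, with smaller sizes under normexp (Fn1 -1.71) and in the authors' deposited table (Fn1 -3.6), while Lyz2, Cd14, Adgre1 and Mpeg1 have symbols on both sides of 0.

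Among genes whose products work with those of the 10 genes or are related to them, 30 of 44 were tested. In 4 the EnhDel values were both under the control values, in 14 both over them and in 12 the groups overlapped. Over all genes tested the shares were 16.6% under and 27.2% over. The median log2 difference of the 30 was 0.24, and none passed limma's adjusted threshold. Of the 5 fibronectin receptor chains (Itga4, Itga5, Itgav, Itgb1 and Itgb3), all were well above background on all 4 arrays, with log2 differences from -0.32 to 0.35. Itga4, whose product pairs with β1 integrin, read 21993 and 17615 on the EnhDel arrays, against 16380 and 16767 on the control arrays. Of the genes around the lipopolysaccharide receptor, Tlr4 read 47.9 and 37.9 on the EnhDel arrays, against 36.9 and 48.9 on the control arrays, and overlapped. Ly96, the Tlr4 partner protein, read 1027 and 1027 on the EnhDel arrays, against 875 and 969.6 on the control arrays. The adaptor gene Ticam2 had lower values on both EnhDel arrays, with 11.2 and 13.1, against 27.3 and 37.3 on the control arrays, with 1 of 2 EnhDel arrays carrying the flag. Lbp, which encodes the protein that hands lipopolysaccharide to Cd14, read 11.5 and 16.0 on the EnhDel arrays, against 25.8 and 32.2 on the control arrays.

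Relatives of the 10 genes were read alongside them. Of 9 other Ms4a genes, 6 were tested. Ms4a6b, a close relative of Ms4a6c, read 7.77 and 13.01 on the EnhDel arrays, against 22.5 and 31.8 on the control arrays, so that it was well above background on the control arrays only and at least 1.97-fold lower. Ms4a4c had differences near 0 (0.01 ± 0.20, SE), and Ms4a4b, at 1336 and 1255 on the EnhDel arrays against 755 and 938 on the control arrays, was higher by 0.72 ± 0.17 (SE). Adgre5, the relative of Adgre1 that encodes CD97, read 18010 and 20398 on the EnhDel arrays, against 11565 and 12545 on the control arrays. That is a difference of 0.77 ± 0.15 (SE), opposite in sign to both Adgre1 probes. Among pore-forming relatives of Mpeg1, C8a, a chain of the complement membrane attack complex, read 583 and 1018 on the EnhDel arrays, against 177 and 197 on the control arrays. F13b, the partner subunit of F13a1, was well above background on no array.

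Beyond the 10 genes, a list of 45 other genes of the monocyte programme was read, of which 35 were tested. In 12 of the 35 the EnhDel values were both under the control values, in 7 both over them, with 16 overlapping, against background shares of 16.6% and 27.2%. None passed limma's adjusted threshold, 8 were lower and 1 was higher at an unadjusted p under 0.05, and the median log2 difference was -0.05, beside 0.06 over all genes tested. Some of the list were far lower. Cx3cr1, the fractalkine receptor gene, read 169 and 73.0 on the EnhDel arrays, against 2888 and 3447 on the control arrays. Tgfbi, which encodes a matrix protein, read 7.57 and 9.26 on the EnhDel arrays, against 279 and 137 on the control arrays, and was at least 15.3-fold lower. Lgals3, the galectin-3 gene, read 2813 and 2027 on the EnhDel arrays, against 13035 and 12771 on the control arrays. The transcription factor gene Klf4 read 758 and 626 on the EnhDel arrays, against 4025 and 3542 on the control arrays.

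Other monocyte genes, like Mpeg1, were read at similar levels on all arrays. Irf8, which encodes a transcription factor needed for monocytes and plasmacytoid dendritic cells, read 259633 and 255451 on the EnhDel arrays, against 288860 and 290293 on the control arrays, a normalized log2 difference of -0.07 ± 0.16 (SE). Tyrobp, Fcer1g, Ctsb, Ctss, Plac8 and Ly86 differed by -0.05 to 0.09. Fcgr1, C5ar1, C3ar1, Msr1, Ms4a6d and Thbs1 were well above background on no array. The list thus held, like the 10 genes, some members that were several-fold lower on both EnhDel arrays and others with differences near 0, besides the 7 with higher EnhDel values. Among these 7, Cd36, a scavenger receptor gene, had a difference of 1.15 ± 0.44 (SE) and Cebpb, a relative of Cebpa, one of 0.56 ± 0.17 (SE). Cd36 read 44.8 and 102 on the EnhDel arrays, against 25.3 and 42.2 on the control arrays, not far over the lowest flagged signals.

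**Figure D4:**
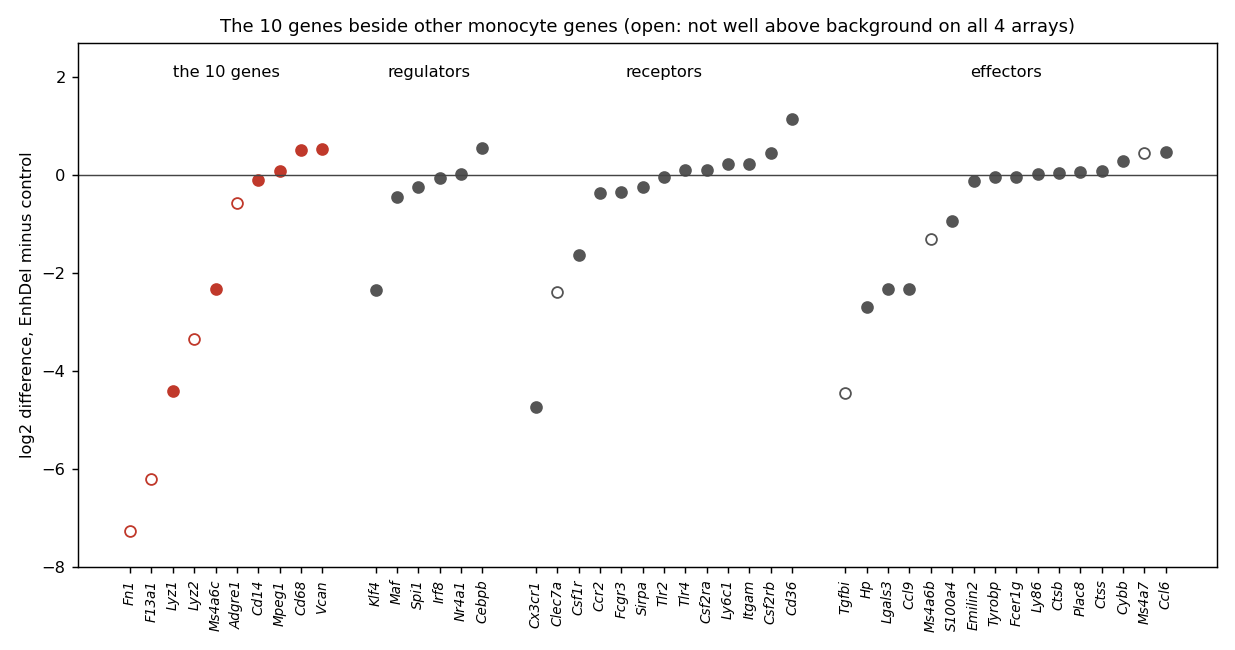
Normalized log2 difference, EnhDel minus control, of the 10 genes (red) and of the 35 tested genes of the monocyte programme (grey), 1 point per gene, split into regulators, receptors and effectors. Open points were not well above background on all 4 arrays, so that the sizes of Fn1, F13a1, Lyz2 and Tgfbi there are not measured sizes. The grey points have a median of -0.05, with Cx3cr1 at -4.73 and Klf4 at -2.36 among the lowest.

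The genes whose pattern over the 4 arrays was most like that of Fn1 and Lyz1 were named by the Euclidean distance between values centred on each gene's mean, over 19390 other genes. For Lyz1 the nearest was Tgfbi (distance 0.21 in log2 units), then Cdr2l (0.91) and Mefv (1.08), the gene of the inflammasome sensor pyrin. Mefv read 7.01 and 13.9 on EnhDel replicates 1 and 2, against 136 and 110.2 on the control replicates. For Fn1 the nearest were Tgfbi (2.83), Cx3cr1 (2.85) and Cdr2l (3.51), at larger distances. Tgfbi and Cdr2l were, like Fn1, well above background on both control arrays and neither EnhDel array. These distances rest on 4 arrays. All of those to Fn1, and those of Lyz1 to Tgfbi, Cdr2l and Mefv, include readings not well above background on at least 1 EnhDel array, so their exact sizes and order are not measured.

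Markers of other blood cells were read on the same arrays, although a lineage-negative sort is meant to remove mature cells of such kinds. Beside the counts of each list stand the shares over all genes tested, 16.6% lower on both EnhDel arrays and 27.2% higher. Of 14 neutrophil genes 8 were tested: 6 were lower on both EnhDel arrays and 2 were higher. Their summed signal was 1099 and 10821 on EnhDel replicates 1 and 2, against 19403 and 25972 on the control replicates, so that the EnhDel arrays differed widely. Mpo, the myeloperoxidase gene, read 534 and 7219 on the EnhDel arrays, against 13685 and 18170 on the control arrays. Of the late granule genes, Ltf, Mmp8, Mmp9, Ngp and Retnlg were well above background on no array. Camp and Lcn2, the 2 higher genes, were well above background on every array. Lcn2 read 46.0 and 68.0 on the EnhDel arrays, against 32.3 and 35.6 on the control arrays. Camp read 59.9 and 72.5, against 53.7 and 58.1. Of 13 macrophage genes 6 were tested, 2 of them higher on both EnhDel arrays and none lower, with a summed signal of 442 and 481 on the EnhDel arrays, against 493 and 420.3 on the control arrays. The 2 higher macrophage genes, C1qb and Marco, were well above background on every array, with normalized log2 differences of 0.48 and 0.71. Both were dim. C1qb read 36.0 and 53.7 on the EnhDel arrays, against 36.3 and 31.3 on the control arrays. Marco read 35.6 and 62.3, against 28.6 and 33.2. Mertk, Cd163, Timd4 and C1qa were well above background on no array.

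The plasmacytoid dendritic cell list, with 4 of 8 genes higher on both EnhDel arrays and none lower, had a summed signal of 677622 and 702506 on the EnhDel arrays, against 699533 and 726336 on the control arrays, and a median log2 difference of 0.14. Of 10 genes on another, general dendritic cell list 9 were tested, with 2 lower on both EnhDel arrays and 4 higher. The 4 higher were the MHC class II genes H2-Aa, H2-Ab1 and H2-Eb1 and Cd74, an MHC class II chaperone gene. The 2 lower were Batf3 (-1.07) and Cd209a (-1.05). That list's summed signal was 499286 and 592744 on the EnhDel arrays, against 386893 and 425191 on the control arrays. Within it, H2-Ab1 alone read 217546 and 219066 on the EnhDel arrays, against 164978 and 184383 on the control arrays. Of 12 tested B-lineage genes 8 were lower on both EnhDel arrays and 1 was higher, and the median was -0.92. In that list Ebf1 read 146 and 59.5 on the EnhDel arrays, against 391.8 and 658.5 on the control arrays. Of 8 tested T and NK cell genes 5 were higher on both EnhDel arrays, as were all 4 tested erythroid genes. Among the erythroid genes, Alas2, Epor and Klf1 passed the filter on dim probes through the EnhDel arrays alone. Nothing is read from that erythroid count. Of 3 tested eosinophil, basophil and mast cell genes all overlapped. For these lists too, the shares over all genes tested were 16.6% lower and 27.2% higher. None of these markers passed limma's adjusted threshold, and the part of any of these cells in the readings of the 10 genes was not tested.

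In the RefSeq table of promoter windows, from 250 bases before to 50 after the start site, 8 windows of 7 of the genes were searched on both strands. Fn1, Adgre1 and Cd14 are not shown. The C/EBP motif TTGCNNAA was found 209 bases before the start site of Lyz1 and 43 bases before that of Cd68, in 2 of 8 windows, where 10.8% of all 32851 windows hold it. The PU.1 motif GAGGAAG was found in both windows of F13a1 alone, 66 bases before the start site in one, besides after it in each, and 13.6% of all windows hold it. The AP-1 motif TGANTCA (7.81% of all windows) was found in Cd68, 149 and 24 bases before its start site, and the composite motif of IRF and PU.1 (2.72%) after it. TATAAA was found in none (13.6% of all windows). These matches describe letters in the windows and not binding.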

How the data were processed

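Cells were sorted into Trizol and their RNA was column-purified, linearly amplified and Cy3-labelled, per the labels' protocols. The authors deposited the intensity of each spot with local background and flags, as written by Agilent Feature Extraction 10.7.3.1, per the file headers. The 4 arrays shared 1 slide and 1 scan. The authors also deposited a log2 table of 31597 rows with 1 decimal, with a normalization not given in the sources used here and a median of 6.5 in every column. For 24810 names with 1 spot, its correlation with the log2 of the spot's median signal was 0.9998 to 0.9999. Over 6705 names with several spots it correlated at 0.9997 to 0.9999 with their mean and at 0.949 to 0.953 with their brightest spot, so a row appears to average a gene's probes.

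Control spots and outlier spots (126 to 162 per array) were left out. The processed signal was put on the log2 scale, the array's 75th percentile was subtracted, and spots of a probe were averaged. Accessions were looked up in RefSeq's GRCm38.p6 table (26581 of 39429 matched) and otherwise kept the file's name. A gene was its brightest probe, and was tested if well above background on both arrays of a group. limma 3.58.1 under R 4.3.3 (lmFit, eBayes, Benjamini-Hochberg, threshold 0.05) was fitted over 19391 genes and tested on simulated data. SEs are from that fit, and any p-value reflects the spread among these samples alone, which may be technical.

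The 10 genes and the other lists were chosen with earlier results of these data known. Named besides them, by a rule in the design, are up to 4 genes per list by unadjusted p and partners and relatives of the 10 genes. Also named are the 3 genes nearest in pattern to Fn1 and to Lyz1, among ordinary gene symbols outside the 10. Genes such as Irf8 and Tyrobp, named for being alike in both groups, and Ms4a4c, Cd36 and Cebpb were chosen after their values were seen. The 14 alternatives are background correction, normalization, filter, probe choice, replicate block, left-out arrays, variance model and the deposited table. A same-numbered pair of samples showed no shared deviation (correlation -0.02).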

Additional observations from a re-analysis of the deposited data

How the results depend on the processing

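Fn1, F13a1, Lyz1 and Ms4a6c were lower on the EnhDel arrays under every alternative that gave a value. The differences ran from -7.90 to -1.71 for Fn1 and -7.70 to -2.2 for F13a1. They ran from -5.04 to -2.25 for Lyz1 and -2.51 to -1.72 for Ms4a6c. The sizes depended on the processing, including the offset of 50 in the normexp runs. The -2.2 for F13a1 comes from the authors' deposited table, where a row appears to average a gene's probes. The second F13a1 probe was well above background on no array. With normexp background correction Fn1 differed by -1.71, F13a1 by -2.54 and Lyz1 by -2.25, and Lyz2 (0.23), Cd14 (0.93), Adgre1 (1.14) and Mpeg1 (-0.20) changed sign. The count of the 10 genes with both EnhDel values below both control values was then 3, their median 0.015 and that of the other monocyte genes -0.16. With 6 spots of extreme local background set to their array's median first, Fn1 differed by -2.996, F13a1 by -3.58, Lyz1 by -3.28, Lyz2 by -0.99 and Cd14 by 0.0092, and the median of the 10 was -0.50. In the authors' deposited table, without visible background subtraction, the differences were -3.6 for Fn1, -2.2 for F13a1, -3.6 for Lyz1, -1.45 for Lyz2 and -0.1 for Mpeg1; the bounds on fold given in the report hold for the reported processing alone. The filter at all 4 arrays left 6 of the 10 genes, with 2 lower and a median of -0.011. Median scaling called 26 genes over the whole table, moved the median of all genes to -0.12 and that of the other monocyte genes to -0.22, and turned Mpeg1 to -0.090; the mean of a gene's probes turned it to -0.10 and moved Adgre1 to -1.65.

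Leaving out 1 array gave 0 to 3210 genes past limma's threshold, where the spread of the single array left in a group is taken from the other group (3210 with EnhDel replicate 1 left out, 93 with EnhDel replicate 2 left out and 3 with control replicate 2 left out), 5 to 7 of the 10 genes lower, a median of the 10 from -1.72 to -1.18 and of the other monocyte genes from -0.12 to 0.0068. Cd14 ranged from -0.70 to 0.48 and turned to 0.48 without EnhDel replicate 1 and to 0.25 without control replicate 1. The replicate block called 0 genes (1942 at an unadjusted p under 0.05) and changed no call. The slide as a block was not run, since all arrays share 1 slide. Causes of these changes were not tested.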
